A study of Mus musculus with 15 samples.

Results

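The genes described here are 7 transcription factors of the mouse embryonic stem (ES) cell network, Pou5f1, Sox2, Nr0b1, Klf4, Klf2, Esrrb and Zfp42, and Tdh, a metabolic enzyme highly expressed in mouse ES cells. Their probes were found by taking every array probe whose gene name in the scanner files equalled one of these 8 symbols, which gave 11 of 41174 expression probes and 43 of 80567 promoter probes. The study compared TKO cells, a DNA methylation deficient ES cell line known for lacking the DNA methyltransferases Dnmt1, Dnmt3a and Dnmt3b, with J1 cells, a wild-type ES cell line. Both lines were kept in serum with LIF and grown without feeders for 2 passages before harvest, so the serum, the LIF and the feeder-free growth are shared by both groups. RNA of both lines was put together on each of 3 expression arrays, and methylated DNA immunoprecipitation (MeDIP, an enrichment of methylated DNA by antibody) of both lines on 7 promoter arrays for each of parts 1 and 2 of the promoter design. The labels name a single TKO line and a single J1 line; the design text gives different passages for the MeDIP replicates and the same cultures for the RNA, but no label ties an expression array to a passage. The tests therefore measure the spread between these arrays, which may be technical for RNA, and not between independent knockout clones.

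Pou5f1 (Oct4) and Sox2 bind DNA together at the enhancers of ES cell genes and are required for pluripotency. Klf4, Klf2 and Esrrb are transcription factors that maintain the naive state of mouse ES cells, Nr0b1 (Dax1) is an orphan nuclear receptor that represses transcription, and Zfp42 (Rex1) is a zinc finger protein used as a marker of naive cells. Tdh, threonine dehydrogenase, starts the breakdown of threonine to glycine and acetyl-CoA on which mouse ES cells depend. Methylation of cytosine in CpG dinucleotides at a promoter is generally linked with low transcription, and CpG-rich promoters are usually free of it.

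The promoter letters matter here because MeDIP pulls down DNA by its methylated CpGs. The 250 bases before the RefSeq start (build GRCm38.p6) are shown for Klf4 and Klf2, the most CpG-rich of the members with a tiled promoter, for Zfp42, and for Nr0b1, the gene whose RNA was furthest below J1, and CpG dinucleotides are in capitals.
Klf4, chr4:55532476-55532725, minus strand: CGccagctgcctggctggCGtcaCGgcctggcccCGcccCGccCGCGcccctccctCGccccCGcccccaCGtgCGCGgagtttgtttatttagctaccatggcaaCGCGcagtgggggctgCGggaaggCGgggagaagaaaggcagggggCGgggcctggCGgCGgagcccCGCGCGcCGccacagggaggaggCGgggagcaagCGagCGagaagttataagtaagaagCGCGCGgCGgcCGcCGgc
Klf2, chr8:72318812-72319061, plus strand: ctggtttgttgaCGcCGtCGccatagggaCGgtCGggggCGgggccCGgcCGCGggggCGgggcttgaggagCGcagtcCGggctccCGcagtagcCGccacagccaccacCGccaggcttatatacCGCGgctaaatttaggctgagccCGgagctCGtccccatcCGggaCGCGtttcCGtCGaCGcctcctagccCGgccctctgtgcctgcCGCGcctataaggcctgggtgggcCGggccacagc
Zfp42, chr8:43307010-43307259, minus strand: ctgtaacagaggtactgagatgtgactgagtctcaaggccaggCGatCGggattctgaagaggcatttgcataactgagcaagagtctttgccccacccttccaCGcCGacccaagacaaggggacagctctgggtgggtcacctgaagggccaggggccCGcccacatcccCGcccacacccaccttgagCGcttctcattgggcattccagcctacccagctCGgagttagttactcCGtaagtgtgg
Nr0b1, chrX:86191525-86191774, plus strand: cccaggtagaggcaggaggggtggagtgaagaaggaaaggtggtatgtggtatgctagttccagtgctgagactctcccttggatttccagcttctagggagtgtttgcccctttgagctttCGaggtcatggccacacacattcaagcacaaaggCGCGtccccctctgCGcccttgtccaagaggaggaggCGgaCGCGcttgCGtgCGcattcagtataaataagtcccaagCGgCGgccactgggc
Klf4 had 32 CpGs in this window and Klf2 had 29, and 4.58% and 6.78% of the 32851 promoters in the table had at least as many. Sox2 was also CpG-rich, with 27. Nr0b1 had 11, Zfp42 had 9, and Pou5f1 had 8 at its upstream start and 6 at its other listed start. The median over all promoters was 6. Esrrb had 6 and 3 at its 2 listed starts, and Tdh was not matched. The octamer ATGCAAAT, the letters that Oct4 and its relatives recognise, was searched on both strands and occurred in 1 member window, that of Zfp42; 1.6% of all promoters held it. The GC box GGGCGG, which Sp and Kruppel-like factors recognise, was found on either strand 4 times in Klf4, 2 times each in Klf2, Zfp42 and Sox2, once in the upstream Pou5f1 window and not in the Nr0b1 or Esrrb windows, against 32.7% of all promoters with at least 1 match. No motif overlap was removed.

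The dye order of the expression arrays was set from the design text, which states a dye swap on array 2; J1 in Cy5 on arrays 1 and 3 is the likely order, and the opposite order would turn every RNA sign below. In this order the RNA of the deleted methyltransferases was below that of J1 cells, where log2(TKO/J1) averaged -2.51 for Dnmt3b, -1.07 for Dnmt1 and -2.43 and -2.36 for the 2 tested Dnmt3a probes, with adjusted p at or below 0.000327 by limma. Whether these probes lie in the deleted exons was not examined. The log ratios of the 3 arrays correlated at 0.779 to 0.808 over tested probes. Array 3 carried 8692 spots marked as uneven by the scanner software, against 63 and 11 on arrays 2 and 1, and 6 of the 11 member probes were among them; these spots were left out, so those probes rest on 2 arrays. Per channel, 38.6% to 66.8% of probes passed the software's mark for well above background. Arrays give no read depth, so their number is what limits the precision.

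In TKO cells the RNA of Pou5f1, Sox2, Nr0b1 and Tdh was lower than in J1 cells, by 1.65-fold to 2.94-fold, and that of Klf4 was 1.96-fold higher. Esrrb was 1.37-fold lower on its brighter probe and Klf2 1.96-fold lower on its brighter probe, while no probe of Zfp42 passed. Of the 10 member probes tested, 6 were lower in TKO and 1 was higher at an adjusted p under 0.05 (limma on log ratios against 0, Benjamini-Hochberg over 16079 probes). Over all tested probes 15.0% were lower and 15.5% were higher, so that 50.9% of the calls were higher. Centring each array on its median instead of loess gave 36.9%. The members were chosen with earlier results of these data known. Counts of members called, here and below, are therefore a description and no independent support. All 8 genes had a probe well above background in both lines on all 3 arrays, so each was detected in TKO cells as well as in J1 cells. A lower signal in bulk RNA cannot tell fewer cells expressing a gene from less RNA per cell.

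**Figure D1:**
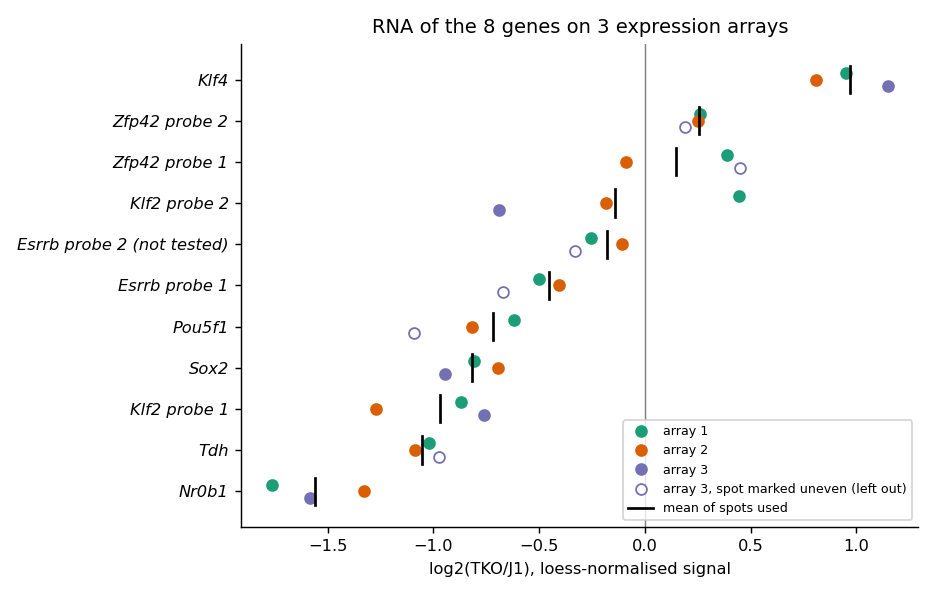
Log2(TKO/J1) of the 11 expression probes of the 8 genes, with 1 point per array, and a bar at the mean of the spots used; open circles are array 3 spots marked as uneven and left out. Klf4 sits above 0 on all 3 arrays and Nr0b1, Sox2, Tdh and the brighter Klf2 probe below 0 on every array measured.

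Among the core factors, Sox2 had log2(TKO/J1) of -0.81, -0.70 and -0.95 on arrays 1 to 3. All 3 values were below 0 and lay close together, giving -0.82 ± 0.13 (SD, n = 3; limma adjusted p = 0.000141). The normalised log2 signal of Sox2 was 10.99 ± 0.29 in TKO cells and 11.80 ± 0.35 in J1 cells (SD, n = 3). Pou5f1 had log2(TKO/J1) of -0.62 and -0.82 on arrays 1 and 2, a mean of -0.72 ± 0.14 (SD, n = 2; limma adjusted p = 0.00153). The spot of Pou5f1 on array 3, which was marked uneven, read -1.09, on the same side of 0. With that spot kept, the normalised log2 signal of Pou5f1 was 10.93 ± 0.40 in TKO cells and 11.77 ± 0.62 in J1 cells (SD, n = 3). The TKO and J1 levels of both genes were higher on array 3 than on array 1, and on each array the TKO level was below the J1 level.

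Nr0b1 had the lowest ratio of the members, with log2(TKO/J1) of -1.76, -1.33 and -1.58 on arrays 1 to 3. No array of Nr0b1 came near 0, and the mean was -1.56 ± 0.22 (SD, n = 3; limma adjusted p = 7.5e-06). In normalised log2 signal Nr0b1 was at 7.31, 7.38 and 8.37 in TKO cells, against 9.08, 8.71 and 9.95 in J1 cells. The TKO values of this repressor did not overlap the J1 values.

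Klf4, which also serves as a reprogramming factor, went the opposite way, with log2(TKO/J1) of 0.95, 0.81 and 1.15 on arrays 1 to 3. All 3 arrays were above 0, and the mean was 0.97 ± 0.17 (SD, n = 3; limma adjusted p = 7.21e-05). Its normalised log2 signal was 12.52, 12.39 and 12.93 in TKO cells, against 11.57, 11.58 and 11.79 in J1 cells. The TKO values of Klf4 did not overlap the J1 values. Under median centring without loess, Klf4 kept its direction at 0.64 but did not pass (limma adjusted p = 0.0534, against a range of 1.34e-07 to 0.0534 over its alternatives).

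**Figure D2:**
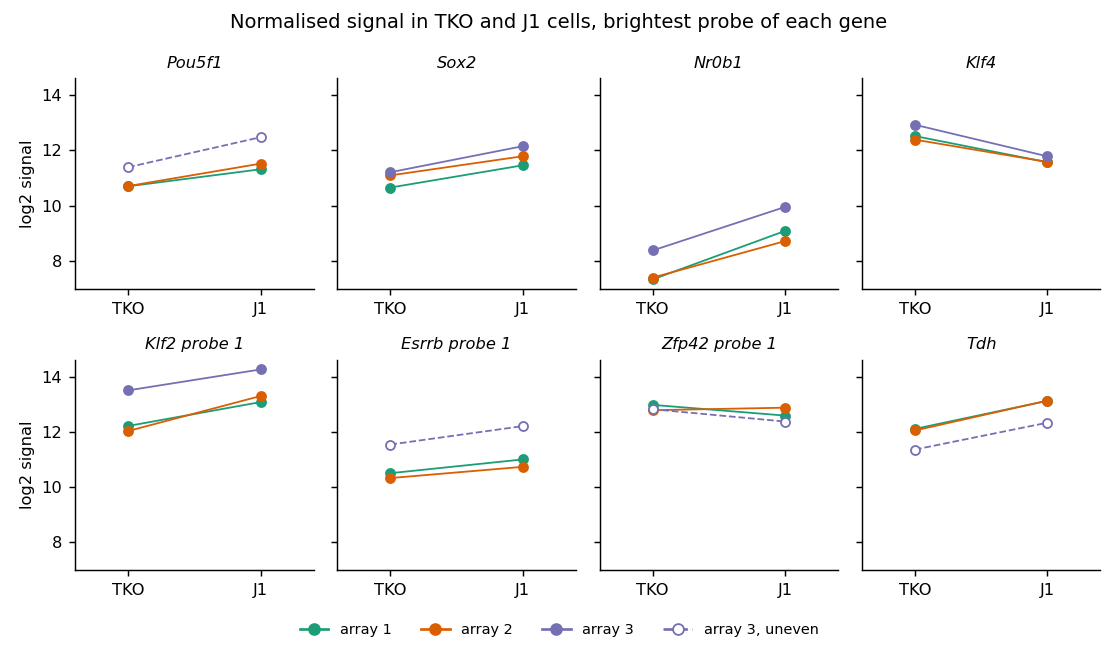
Normalised log2 signal (y axis) of the brightest tested probe of each gene in TKO and J1 cells, with 1 line per array; dashed lines with open circles are array 3 spots marked uneven. Lines climb towards J1 for Pou5f1, Sox2, Nr0b1, Klf2, Esrrb and Tdh and descend for Klf4, while those of Zfp42 do not share a direction.

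The related factor Klf2 was measured by 2 probes that disagreed. The brighter probe had log2(TKO/J1) of -0.87, -1.27 and -0.76 on arrays 1 to 3, a mean of -0.97 ± 0.27 (SD, n = 3; limma adjusted p = 0.000183). The dimmer probe of Klf2 had 0.45, -0.18 and -0.69, a mean of -0.14 ± 0.57 (SD, n = 3; limma adjusted p = 0.564). The brighter probe lay below 0 on every array, whereas the dimmer one crossed 0 between arrays, so a lower Klf2 RNA in TKO rests on 1 probe. Which part of the transcript each probe reads was not examined. Klf2 and Zfp42 lie on chromosome 8, whose 846 tested probes had a median log2(TKO/J1) of 0.16, at 0.21, 0.15 and 0.10 on arrays 1 to 3, the highest median of any chromosome. With each array centred on its own chromosome medians, the brighter Klf2 probe stood at -1.12 and was still called (limma adjusted p = 2.68e-05, within 2.57e-07 to 0.0113 over its alternatives).

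Esrrb, an orphan nuclear receptor, had log2(TKO/J1) of -0.50 and -0.41 on arrays 1 and 2 on its brighter probe, a mean of -0.45 ± 0.06 (SD, n = 2; limma adjusted p = 0.0111), and its uneven spot on array 3 read -0.67. A dimmer Esrrb probe was not well above background on all 3 arrays in either line and was not tested; it read -0.25 and -0.11. With median centring neither Pou5f1, at -0.75, nor Esrrb, at -0.47, passed (limma adjusted p = 0.068 and 0.323, the highest over the alternatives of each, with 0.000413 and 0.00252 the lowest).

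Zfp42 was measured by 2 probes, neither of which passed. The brighter probe had log2(TKO/J1) of 0.39 and -0.09 on arrays 1 and 2, a mean of 0.15 ± 0.34 (SD, n = 2; limma adjusted p = 0.428). The dimmer probe had 0.26 and 0.25, a mean of 0.26 ± 0.01 (SD, n = 2; limma adjusted p = 0.091). The brighter probe crossed 0 and the dimmer one lay above it on both arrays, where the chromosome 8 medians were 0.21 and 0.15. The uneven spots on array 3 read 0.45 on the brighter probe and 0.19 on the dimmer one. With these spots kept, the means were 0.25 and 0.23 and neither probe was called (limma adjusted p = 0.131 and 0.0514). Centred on its own chromosome, the brighter probe turned to -0.03.

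Tdh had log2(TKO/J1) of -1.02 and -1.09 on arrays 1 and 2, a mean of -1.05 ± 0.05 (SD, n = 2; limma adjusted p = 0.000165). Its uneven spot on array 3 read -0.98, so all 3 arrays gave nearly the same ratio. The normalised log2 signal of Tdh was 11.84 ± 0.42 in TKO cells and 12.87 ± 0.46 in J1 cells (SD, n = 3, with the uneven spot kept). In the authors' deposited table, the mean of 3 arrays that runs in the same direction, Tdh stood at -1.01, Nr0b1 at -1.86 and Klf4 at 1.00 after conversion to log2.

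Ordered by ratio, Nr0b1 was lowest, and none of its arrays overlapped those of any other member. Tdh, the brighter Klf2 probe, Sox2 and Pou5f1 followed, and each neighbouring pair in that order overlapped between arrays. Esrrb came next without overlapping Pou5f1 on the arrays used (its uneven spot, at -0.67, would overlap), then the dimmer Klf2 probe and Zfp42, and Klf4 was highest, with its lowest array at 0.81. Over 7656 genes measured on all 3 arrays, the gene names close to Nr0b1 in log2(TKO/J1) included Pdcl2 and G630064H08Rik (now Rnf165), at Euclidean distances of 0.216 and 0.340 over the 3 arrays. Those closest to Klf4 were Il17rc, 2410026K10Rik (now Cd99) and Akap2 (now Pakap), at 0.079, 0.089 and 0.096.

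Other genes of the network moved in both directions. Of 38 further pluripotency genes 31 were tested by their brightest probe, of which 8 rose and 5 fell in TKO, around a list median of 0.00 in log2(TKO/J1). Over all 12013 genes tested in this way 16.3% were higher and 16.1% lower, with a median of -0.01. The highest calls were Id1, an inhibitor of differentiation factors downstream of BMP, at 0.81 ± 0.11 (SD, n = 3), and Spp1, a secreted phosphoprotein, at 0.73 ± 0.09 (n = 2). The lower calls included Zfp281, a zinc finger factor, at -0.66 ± 0.04 (n = 2). Nanog, a homeobox factor of the same network, was on the array but not well above background on all 3 arrays in either line, so it was not tested.

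Of 9 genes of LIF signalling 7 were tested. For the lists in this paragraph, the share over all genes tested was 16.3% higher and 16.1% lower. The kinase Jak1 was higher in TKO, at 0.66 ± 0.07 (SD, n = 2), as was Stat3, the transcription factor that LIF activates, at 0.33 ± 0.19 (n = 3). Socs3, a feedback inhibitor of the pathway, was the only lower call, at -0.25 ± 0.10 (n = 3). Among the other Kruppel-like factors 10 of 14 were tested: Klf6 at 0.89 ± 0.09 (n = 2) and Klf11 at 0.42 ± 0.23 (n = 3) were higher, Klf15 at -0.43 ± 0.26 (n = 3) was lower, and 7 were not called.

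Around Tdh, 19 of 21 genes of threonine, glycine and one-carbon metabolism were tested. Of these 4 were higher and 3 lower, with a median of 0.00, near the 16.3% higher and 16.1% lower over all genes tested. Mthfd2, a mitochondrial folate enzyme, was highest at 0.96 ± 0.03 (SD, n = 2), followed by Phgdh, which opens serine synthesis, at 0.38 ± 0.17 (n = 2). The lower calls were the neutral amino acid transporter Slc1a5 at -0.64 ± 0.17 (n = 3), the cytosolic folate enzyme Mthfd1 at -0.49 ± 0.24 (n = 3) and Gcat at -0.41 ± 0.02 (n = 2). Gcat, named after its value was seen, carries out the step that follows Tdh. Of 13 genes of the formative and primed states, which follow the naive state, 7 were tested: Etv4 was higher at 0.59 ± 0.22 (n = 2), and 4 were lower, with Lef1 at -1.09 ± 0.22 (n = 3) and Nodal at -1.004 ± 0.13 (n = 3) the lowest.

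Markers of extra-embryonic cell types also differed between the lines. All 12 tested of 18 primitive endoderm markers and 9 of 10 tested of 16 trophoblast markers were higher in TKO, with medians of 1.35 and 1.91. Over all genes tested by their brightest probe 16.3% were higher and 16.1% lower. A marker dim in J1 cells was tested only where it was bright in TKO cells, which fixes its direction. The lists were also chosen with earlier results of these data known. The counts and medians in this paragraph are therefore a description and no independent support. The summed normalised signal of the trophoblast list was 39180 to 51430 in TKO cells and 9363 to 10960 in J1 cells over the 3 arrays, and that of the primitive endoderm list was 13820 to 15950 in TKO cells and 7345 to 7715 in J1 cells. Gata4, Sox7 and Hnf4a of the endoderm list and Cdx2, Eomes and Elf5 of the trophoblast list were not tested. They were not well above background on all 3 arrays in either line. Of 13 fibroblast markers 8 were tested and 5 were higher, with a summed signal of 7638 to 12170 in TKO cells and 6873 to 8107 in J1 cells. Col3a1, Dcn, Postn and Thy1 were not well above background on all 3 arrays in either line. The summed signal of the further pluripotency list was 110900 to 143800 in TKO cells and 83890 to 109600 in J1 cells. The part of other cell types in the lower RNA of Pou5f1, Sox2, Nr0b1, Tdh, Esrrb and the brighter Klf2 probe was not tested.

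The promoter arrays carried no probe named Sox2 and 5 to 10 probes for each of the other 7 genes. All MeDIP ratios are log2 of the channel labelled TKO over the channel labelled J1. No promoter array was dye-swapped, so dye and line cannot be told apart, and the sides are named by label only. For Klf4 the 6 probes lay between -975 and +294 bp of the annotated start, for Zfp42 the 6 lay between -915 and +365, for Nr0b1 the 5 lay between -1016 and +138, for Esrrb the 5 lay between -916 and +156, and for Tdh the 6 lay between -2150 and +402. The 5 probes of Pou5f1 lay far from its annotated start: 4 were between -5567 and -4683 bp and 1 was at +1968 bp. RefSeq lists 2 Pou5f1 starts, and which of them these distances refer to was not examined. Of the 10 Klf2 probes 5 lay between -1129 and +190 bp of its start, and the other 5 were filed with a different transcript and had no distance to Klf2.

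Averaged over the probes of each gene, 2 of the 7 members lay on the side labelled TKO and 2 on the side labelled J1 (limma over 13633 regions of at least 3 probes, adjusted p under 0.05). Over all regions 31.4% were called on the side labelled TKO and 25.3% on the side labelled J1. No member reached a log2 ratio 0.5 away from 0 as well, and 2.12% of all regions did so on either side. The median standard deviation of a region over the 7 arrays was 0.10.

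**Figure D3:**
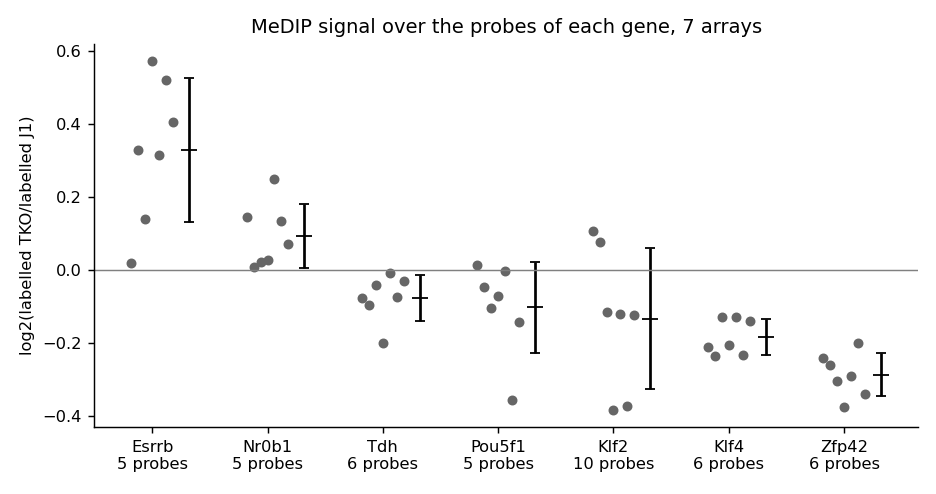
MeDIP log2(labelled TKO/labelled J1) averaged over the probes of each gene, with 1 point for each of 7 arrays and the mean with its SD to the right. All 7 arrays of Esrrb and Nr0b1 lie above 0, and all 7 of Klf4, Zfp42 and Tdh below it.

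Zfp42 lay furthest towards the label J1, with a lowest, median and highest array of -0.37, -0.29 and -0.20. All 7 arrays were below 0, and the mean was -0.29 ± 0.06 (SD, n = 7; limma adjusted p = 3.02e-05). Klf4 had -0.24, -0.21 and -0.13, also with every array below 0, and a mean of -0.18 ± 0.05 (SD, n = 7; limma adjusted p = 0.000303). Chromosome 8, which holds Zfp42 and Klf2, was shifted the same way as a whole: its probes had median ratios of -0.12 and -0.10 on parts 1 and 2. Centred on its own chromosome, Zfp42 stood at -0.17, nearer 0 than Klf4 at -0.18, and was still called (limma adjusted p = 0.000658, the highest over its alternatives, with 3.52e-06 the lowest), and Klf2 stood at -0.05.

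Esrrb lay furthest towards the label TKO, with a lowest, median and highest array of 0.02, 0.33 and 0.57. The probes of Esrrb lie around a single annotated start, and which of its 2 RefSeq starts that is was not examined. For Esrrb all 7 arrays were above 0 but spread widely, and the mean was 0.33 ± 0.20 (SD, n = 7; limma adjusted p = 0.000893). Nr0b1 had 0.01, 0.07 and 0.25, with all 7 arrays above 0 and a mean of 0.09 ± 0.09 (SD, n = 7; limma adjusted p = 0.0371). The call of Nr0b1 was not stable: with background-corrected raw signals in place of the processed ones its mean was -0.05 (limma adjusted p = 0.242), and over its alternatives the adjusted p lay between 0.00696 and 0.986. Without array 1, 5, 6 or 7 it was at 0.08, 0.07, 0.09 and 0.10 and did not pass.

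Klf2, Pou5f1 and Tdh did not pass. Klf2 had a lowest, median and highest array of -0.38, -0.12 and 0.11 and a mean of -0.13 ± 0.19 (SD, n = 7; limma adjusted p = 0.0721), with 2 arrays above 0. Its 5 probes at the start alone averaged -0.11 ± 0.18 (limma adjusted p = 0.125). Tdh had -0.20, -0.08 and -0.01, all 7 arrays below 0, and a mean of -0.08 ± 0.06 (SD, n = 7; limma adjusted p = 0.0536). Pou5f1 had -0.36, -0.07 and 0.01 and a mean of -0.10 ± 0.12 (SD, n = 7; limma adjusted p = 0.0605). The Pou5f1 mean joined probes on opposite sides of 0, and without the probe at +1968 bp the 4 upstream probes averaged -0.22 ± 0.11, with all 7 arrays below 0 (limma adjusted p = 0.000943). Each of the 3 genes passed when 1 array was left out, namely Klf2 without array 1 or 2 (both -0.17), Pou5f1 without array 1 (-0.12) and Tdh without array 5 (-0.09). Pou5f1 also passed with loess within arrays (-0.13, limma adjusted p = 0.0179) and with the median over probes (-0.14, limma adjusted p = 0.021). Klf2 also passed where only bright probes were used (-0.13, limma adjusted p = 0.0444). Tdh also passed with its probes within 1000 bp of the start alone (-0.11), with slide as a random block (-0.08), with own-chromosome centring (-0.10) and where only bright probes were used (-0.08), with adjusted p of 0.0184 to 0.491 over its alternatives by limma.

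Single probes showed where along each region the ratio left 0. Of the 43 member probes 6 were called on the side labelled TKO and 12 on the side labelled J1 (limma over 80567 probes, adjusted p under 0.05), against 22.1% and 19.7% of all probes. Within Klf4 the 3 called probes were neighbours around the start: -0.42 ± 0.18 at -492 bp, -0.28 ± 0.15 at -161 bp and -0.31 ± 0.15 at +47 bp (SD, n = 7). The probes on either side of them, at -975, -709 and +294 bp, averaged -0.02, -0.11 and 0.04 and were not called. Whether the array's annotated start is the RefSeq start of the window printed above was not examined.

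Within Zfp42 the lowest ratios were at the ends of the region, with -0.65 ± 0.32 at -915 bp and -0.51 ± 0.31 at +365 bp (SD, n = 7), all arrays below 0. The probes at -639 and -181 bp were also called, at -0.29 ± 0.13 and -0.25 ± 0.07, while the probe at +99 bp averaged 0.09 ± 0.10 and was not. Within Esrrb the ratio was highest far from the start, at 0.71 ± 0.38 at -916 bp and 0.46 ± 0.25 at -636 bp, and 0.21 ± 0.06 at -116 bp was the third call (SD, n = 7).

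Within Nr0b1 the probe at -141 bp was above 0 on all 7 arrays, at 0.20 ± 0.14, and the one at -744 bp on 6, at 0.42 ± 0.44 (SD, n = 7; limma adjusted p = 0.0202 and 0.0363). The Nr0b1 probe at -421 bp was not well above background in both channels on any array. Within Tdh the probes at -384 and -122 bp were called, at -0.24 ± 0.15 over 6 arrays and -0.14 ± 0.06 over 7. Within Pou5f1 the probes at -5296 and -4908 bp were called on the side labelled J1, at -0.22 ± 0.15 and -0.26 ± 0.12, and the probe at +1968 bp on the side labelled TKO, at 0.37 ± 0.29, with all 7 arrays above 0. The only called Klf2 probe was the most distant of its start group, at -1129 bp, with -0.29 ± 0.22.

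**Figure D4:**
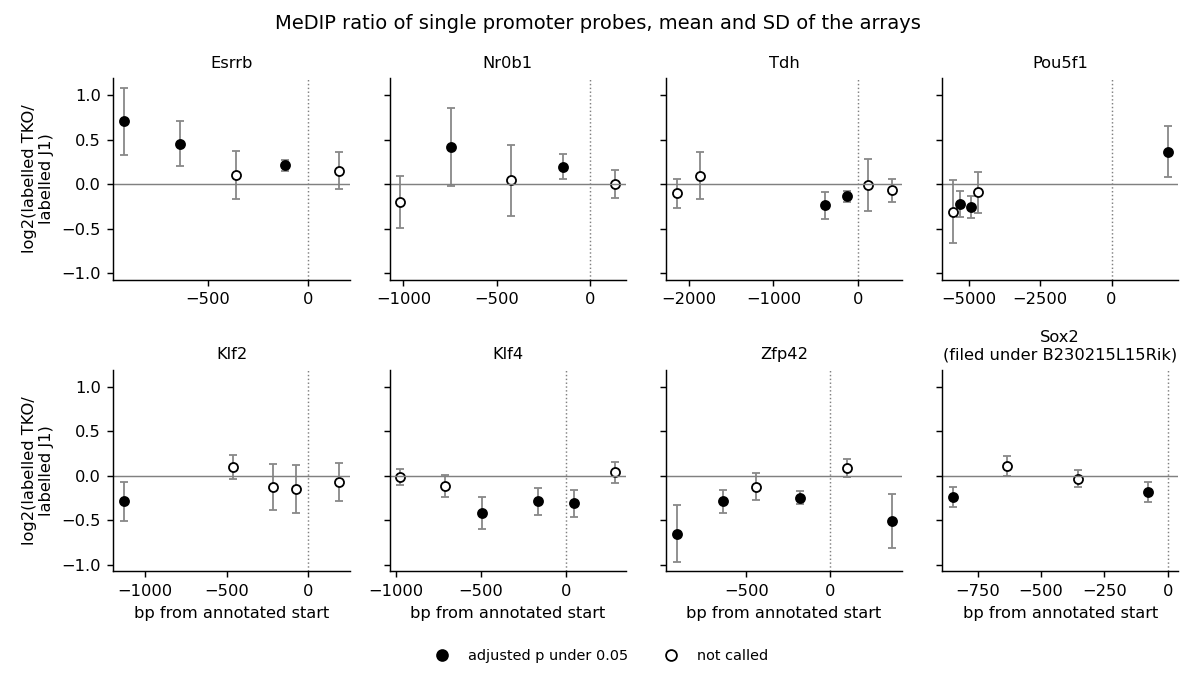
MeDIP log2(labelled TKO/labelled J1) of single promoter probes against their distance in bp from the annotated start, mean and SD over the arrays; filled points have an adjusted p under 0.05. Klf4 dips below 0 from -492 to +47 bp, Esrrb is highest at -916 bp, and Pou5f1 has no probe between -4683 and +1968 bp.

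Although no promoter probe was named Sox2, 4 probes filed under the name B230215L15Rik carried a distance to the Sox2 start and are given as a description, since they fall outside the name match and were chosen after their values were seen. They lay at -849, -633, -353 and -76 bp and averaged -0.24, 0.11, -0.03 and -0.18. The first and the last were called (limma adjusted p = 0.00584 and 0.0205).

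RNA and MeDIP values of the 7 genes with both are set side by side as a description, with no test on so few. Esrrb and Nr0b1, the members on the side labelled TKO, had RNA log2(TKO/J1) of -0.45 and -1.56. Klf4 and Zfp42, on the side labelled J1, had RNA log2(TKO/J1) of 0.97 and 0.15, of which that of Zfp42 did not pass. The other 3 genes were below 0 in both measures with MeDIP ratios that did not pass: Tdh had -1.05 in RNA and -0.08 in MeDIP, Klf2 had -0.97 and -0.13, and Pou5f1 had -0.72 and -0.10. Among the further pluripotency genes 23 had a promoter region, 4 were called on the side labelled TKO and 10 on the side labelled J1, where all regions had 31.4% and 25.3%, and their median was -0.05 against 0.01 over all regions. Dppa3, a germ line and naive state gene, was the only 1 of the 23 to be called with a ratio 0.5 or more from 0, at 0.72 (limma adjusted p = 5.27e-06), and its RNA was at 0.72 ± 0.20 (SD, n = 3).

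**Figure D5:**
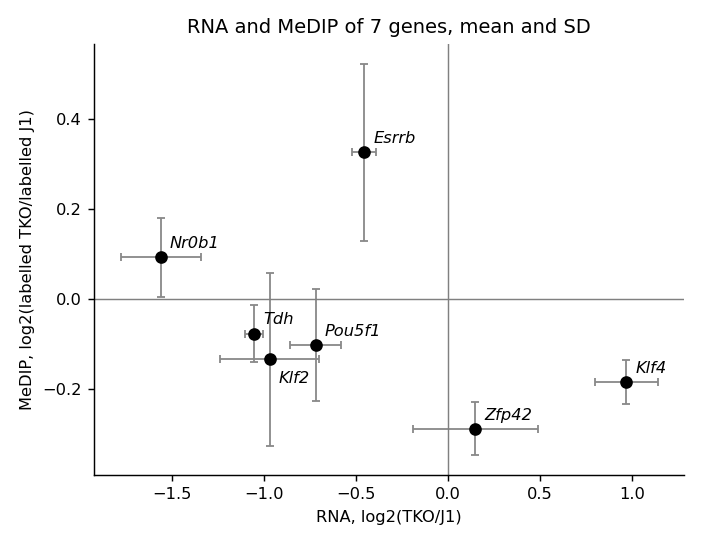
RNA log2(TKO/J1) of the brightest probe (x axis) against MeDIP log2(labelled TKO/labelled J1) (y axis) for the 7 genes with both, mean and SD over arrays. Nr0b1 and Esrrb are the only points left of 0 on the x axis and above 0 on the y axis, and Klf4 stands alone on the far right.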

How the data were processed

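Agilent arrays with 2 colours carried RNA or MeDIP DNA of TKO and J1 mouse ES cells. Scanner files came from Agilent Feature Extraction (8.5 per the submitters' processing notes; 7.5 per the file headers of expression arrays 2 and 3). Their intensity values were deposited as raw means with local background and as processed signals, which are background-subtracted and dye-normalised, linearly for MeDIP and by LOWESS for expression, per the file headers. In the value tables the authors deposited log10 ratios; that for expression is the mean of 3 arrays (median -0.0158) and correlated at 0.922 with the log2(TKO/J1) fitted here, and those for MeDIP (medians -0.0102 to 0) match the log ratio in the scanner files, red over green. No source used here gives their centring.

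Expression was computed with normexp (offset 50) and loess, spots of a probe averaged, and tested where a probe was well above background in TKO or in J1 on all 3 arrays. Levels per line were further scaled between arrays (Aquantile). MeDIP used log2(Cy5/Cy3) of processed signals, TKO being labelled Cy5 on every array, centred on the median of each array, and averaged over probes of a gene name (at least 3). Control and uneven spots were left out. Tests were limma 3.58.1 (R 4.3.3) against 0, called at an adjusted p under 0.05. The limma step was also run on simulated log ratios with known changes, larger than the MeDIP mean of any member and without dye effects. Those runs do not cover the smaller MeDIP calls. Symbols of array 1 were taken from array 2 by probe. Some arrays share a slide code (expression arrays 2 and 3; MeDIP arrays 2 and 4 of both parts and 5 and 6 of part 2), and both lines are on each array. Members and gene lists were chosen with earlier results of these data known. Named genes were the 8 members, the 3 names nearest to Nr0b1 and Klf4, the 2 highest and 2 lowest calls of each list with the same sign on every array, and the Dnmt genes; a few names picked this way are left out of the text. No source used here names the genome build of the probes, so only distances are printed; promoter sequences come from RefSeq (GRCm38.p6), where 7 of 8 members matched.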

Additional observations from a re-analysis of the deposited data

Results flagged for a closer look

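In 4 of 50 groups of 6 or 7 arrays (the 7 regions and 43 member probes) 1 array lay far from the others; chance gives about 1 in 20. For the Pou5f1 region it was array 6, at -0.36 in log2(labelled TKO/labelled J1). For single probes it was array 1 at the Nr0b1 probe at +138 bp, with -0.35, array 1 at the Klf4 probe at +294 bp, with -0.22, and array 7 at a Klf2 probe 198 bp from the start of the other transcript, with 0.060. None of these 3 probes was called, and no explanation was examined.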

How the results depend on the processing

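The lower RNA of Sox2, Nr0b1, Tdh and the brighter Klf2 probe stayed called under each tested alternative that could measure them, as did the MeDIP calls of Esrrb, Klf4 and Zfp42. Median centring gave 393 higher and 671 lower expression probes, with 0 member probes higher. A dye term, which needs 3 arrays and so drops probes with an uneven spot (10375 tested), gave 1331 and 1151, with 3 member probes lower. Leaving out each expression array gave 1152 to 2219 higher and 1131 to 1922 lower probes, with 3 to 6 member probes lower and 1 higher; without array 1 or 2, probes with an uneven spot on array 3 had a single value and dropped out. The dimmer Klf2 probe turned to 0.13 without array 3 and was called at -0.44 without array 1 (limma adjusted p = 0.0338), and the brighter Zfp42 probe turned to -0.031 with own-chromosome centring, an alternative added after the data were seen. For MeDIP, normexp signals gave 1864 regions on the side labelled TKO and 2145 on the side labelled J1, and turned Nr0b1 to -0.048. Members on the side labelled TKO numbered 1 with normexp, loess, bright probes alone or own-chromosome centring, each time because Nr0b1 was no longer called, and those on the side labelled J1 numbered 4 with bright probes alone. Leaving out each MeDIP array gave 1 to 2 and 2 to 4 members. Without array 1 Klf2 and Pou5f1 were called at -0.17 and -0.12, without array 2 Klf2 at -0.17, and without array 5 Tdh at -0.09 (limma adjusted p = 0.0295, 0.0451, 0.0369 and 0.0482). Except where stated, the cause was not tested. Slide could be fitted as a random block on part 2 alone, where Tdh was then called (limma adjusted p = 0.0475). The estimated correlation within a slide was -0.07, a negative value that does not make the test stricter. Each ratio already pairs both lines within an array. No paired analysis was possible because no test compares arrays of parts 1 and 2, the groups that share replicate numbers. Dim probes limit the depth of the Nr0b1 region, where 3 of 5 probes were well above background on all arrays.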
